A study of Mus musculus with 2 samples.

Results

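Blood vessels of muscle are wrapped by mural cells, and 10 genes that mark them were followed: 4 contractile genes of smooth muscle (Acta2, Myh11, Tagln and Cnn1) and 6 genes of pericytes (Mcam, Kcnj8, Abcc9, Rgs5, Pdgfrb and Cspg4). They were taken by gene symbol from the array's annotation, which named 17 probes for the 10 genes, of 25697 probes and 16593 named genes in all. RNA came from tibialis anterior, a muscle at the front of the lower leg, of C57/BL6 mice aged 10 days, taken 24 h after an injection under the skin. The DHT group received DHT, read here as dihydrotestosterone, an androgen, and the vehicle group received vehicle. Each group had 1 Illumina bead array. The labels give no dose, sex or litter and do not say how many animals an array stands for. With 1 array per group no test between the groups was possible, and every difference below describes these arrays without an error between animals.

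Smooth muscle cells of arteries contract through a specialised actin and myosin, while pericytes sit singly on capillaries and are held there by PDGF-B, which endothelial cells release and the receptor Pdgfrb on the pericyte reads. Contractile genes are switched on by the serum response factor SRF with myocardin, acting at a DNA element called the CArG box. Several of these genes are not private to mural cells: Acta2 is also made for a time by immature skeletal muscle cells and by activated fibroblasts, Mcam by endothelium, Pdgfrb by fibroblasts, and Abcc9 by muscle fibres.

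Promoters were compared to show the sequence that the contractile programme reads beside that of pericyte genes. RefSeq start sites on GRCm38.p6 matched 7 of the 10 genes, and the 250 bases before the start are shown 5′ to 3′ for Acta2 (chr19:34255374-34255623, minus strand), Mcam (chr9:44134408-44134657, plus strand), Kcnj8 (chr6:142571615-142571864, minus strand) and Rgs5 (chr1:169655251-169655500, plus strand). The first 3 genes were lower on the DHT array and Rgs5 differed little. Capitals mark a CArG box with 1 C or G in its core of 6 letters, a form admitted after the sequences were seen.
Acta2: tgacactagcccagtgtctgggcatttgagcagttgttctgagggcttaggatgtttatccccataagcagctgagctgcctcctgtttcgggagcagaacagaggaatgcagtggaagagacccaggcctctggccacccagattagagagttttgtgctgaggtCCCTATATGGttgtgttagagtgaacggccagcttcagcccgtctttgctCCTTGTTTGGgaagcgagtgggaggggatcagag
Mcam: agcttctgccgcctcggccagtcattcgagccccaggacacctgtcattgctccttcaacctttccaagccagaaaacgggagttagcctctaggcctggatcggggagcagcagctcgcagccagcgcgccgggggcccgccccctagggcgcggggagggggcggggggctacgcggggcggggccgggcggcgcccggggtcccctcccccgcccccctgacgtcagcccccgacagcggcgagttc
Kcnj8: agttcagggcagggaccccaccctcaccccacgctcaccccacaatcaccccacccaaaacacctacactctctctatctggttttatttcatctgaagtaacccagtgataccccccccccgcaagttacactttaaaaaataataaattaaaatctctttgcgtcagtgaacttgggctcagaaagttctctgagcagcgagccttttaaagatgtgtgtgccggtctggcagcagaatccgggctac
Rgs5: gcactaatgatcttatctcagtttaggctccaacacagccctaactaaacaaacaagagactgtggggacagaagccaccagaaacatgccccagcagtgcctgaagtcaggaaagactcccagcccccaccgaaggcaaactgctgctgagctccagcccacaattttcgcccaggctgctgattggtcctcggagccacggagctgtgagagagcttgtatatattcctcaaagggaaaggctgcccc

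The Acta2 window held 2 such elements, CCCTATATGG beginning 84 bases and CCTTGTTTGG beginning 34 bases before the annotated start. The windows of the other 6 matched genes (Abcc9, Cnn1, Cspg4, Kcnj8, Mcam and Rgs5) held 0. The CArG box with only A and T in its core was in 0 of the 7 windows. On both strands, the strict form was present in 1.47% and the form with up to 1 substitution in 8.59% of 32851 RefSeq windows of the same length. GC content ranged from 49.2% in Kcnj8 to 73.6% in Mcam, against a median of 52.4% over all windows. A match describes the letters of the window alone.

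The deposited signal is a probe's brightness on a linear scale. A probe was taken as detected at a detection p, its comparison with the array's background, under 0.01. Lowest detected signals were 180 on the DHT array and 190 on the vehicle array, and 45.7% of probes were detected on the DHT array and 46.5% on the vehicle array. Of the 17 probes, 15 were detected on both arrays, 1 on the DHT array alone and 1, that of Cnn1, on neither. Differences are DHT minus vehicle in log2 units after background correction and quantile normalization. Detected probes of one gene differed from each other with an SD of 0.29 over 2229 genes, and of 0.36 over the 276 genes whose brightest probe averaged a signal under 300. This is a spread between probes within the arrays, which can also differ in brightness and in the transcript they read. It is no error between animals, and the number of arrays limits all else. Skeletal fibre genes were bright, as the tissue label says: 11 of 11 were detected. Signals above 40000 on both arrays were read for 8 of them, which compresses their median difference of 0.01. Leaving out such probes removed most of the list. The genes left were Myh1 (-0.47), Myh4 (0.41), Mb (0.75) and Actn3 through a dimmer probe (0.55), with a median of 0.48.

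Of the 9 detected members, 5 were at least 1.5-fold lower on the DHT array (Acta2, Mcam, Kcnj8, Pdgfrb and Cspg4), 1 was at least 1.5-fold higher (Tagln), and 3 (Myh11, Abcc9 and Rgs5) were under that threshold. Over all 8815 detected genes, 15.8% were lower and 13.4% higher by as much, the shares to set beside each list count below. At 2-fold, 4 members were lower, where 6.28% of all genes were. Without background correction 4 members were lower and 0 higher at 1.5-fold, where 8.43% of all genes were lower and 6.74% higher. The median difference was -1.01 for the 6 pericyte genes and 0.33 for the 3 detected contractile genes, beside -0.01 over all genes. This contractile median was the value of 1 gene, Myh11, between Acta2 (-1.18) and Tagln (0.70). The contractile and pericyte genes did not separate cleanly. On its brightest probe the contractile gene Acta2 (-1.18) lay within the range of the lower pericyte genes. Its other probes (-1.36, -1.58 and -1.65) read below all the pericyte genes. The pericyte genes Rgs5 and Abcc9 lay near the median of all genes. In bulk tissue, fewer cells of a type and less RNA per cell cannot be told apart.

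**Figure D1:**
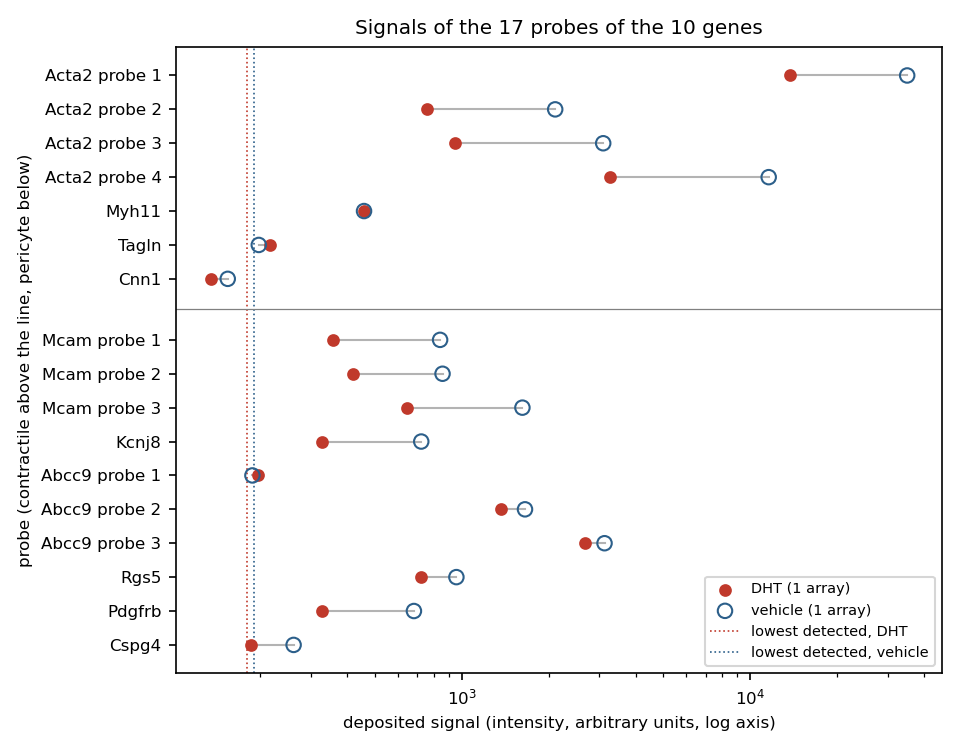
Deposited signals (log axis, arbitrary units) of the 17 probes, 1 row each, with a filled point for the DHT array and an open circle for the vehicle array; dotted lines give each array's lowest detected signal. The 4 Acta2, 3 Mcam, Kcnj8 and Pdgfrb probes lie well to the left on the DHT array, the 2 Myh11 points coincide at 456 and 457, and Tagln, Cnn1, Cspg4 and the first Abcc9 probe sit beside the detection limits.

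Acta2 encodes the smooth muscle actin of the contractile apparatus and was read by 4 probes. The brightest, ILMN_2693895, had a signal of 13782 on the DHT array and 35025 on the vehicle array. Probe ILMN_2923445 had 3257 on the DHT array and 11588 on the vehicle array. Probe ILMN_2710354 had 945 on the DHT array and 3090 on the vehicle array, and ILMN_2710353 had 757 on the DHT array and 2106 on the vehicle array. All 4 were lower on the DHT array, between 2.27-fold and 3.14-fold, with log2 differences of -1.18 for the brightest and -1.65 for ILMN_2923445. Their SD of 0.21 was small beside their median of -1.47. Without background correction the 4 probes were 2.26-fold to 3.06-fold lower. On the value of its brightest probe Acta2 ranked 403rd from the lowest of 8815 genes.

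The actins are near-identical, so probes of one may also bind another. The actin genes Acta1 (0.01) and Actc1 (0.01), of skeletal and of fetal and cardiac muscle, were near the top of the scale on both arrays, where differences are compressed (Acta1 at 65863 on the DHT array and 66504 on the vehicle array). A dimmer Actc1 probe, at 20926 on the DHT array and 21267 on the vehicle array, differed by 0.16. Actg2, the smooth muscle actin of gut and bladder, was 381 on the DHT array and 273 on the vehicle array, which is 2.21-fold higher (log2 difference 1.14, 1.60-fold uncorrected). The part of such binding in the Acta2 signals was not tested.

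Myh11, the smooth muscle myosin heavy chain and the most specific marker of mature smooth muscle in the panel, did not share it. Its 1 probe had a signal of 456 on the DHT array and 457 on the vehicle array. After normalization the log2 difference was 0.33, or 1.25-fold higher, near the SD of 0.30 between probes of genes of that brightness. Myh11 stood at rank 6615 from the lowest.

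Tagln encodes transgelin, an actin-binding protein of the calponin family. Its probe was close to the detection limit, with 217 on the DHT array (detection p 0.0013) and 197 on the vehicle array (detection p 0.0075). The log2 difference of 0.70, 1.62-fold higher, corresponded to 1.20-fold higher without background correction, below the 1.5-fold threshold. Cnn1, or calponin, which restrains smooth muscle myosin, had 135 on the DHT array (detection p 0.73) and 154 on the vehicle array (detection p 0.24). It did not reach the detection threshold on either array, so no fold is given.

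Among the pericyte genes Mcam, the adhesion molecule CD146, was read by 3 probes. Probe ILMN_2955919 had a signal of 645 on the DHT array and 1621 on the vehicle array, ILMN_2614531 had 420 on the DHT array and 856 on the vehicle array, and ILMN_1229960 had 358 on the DHT array and 840 on the vehicle array. All 3 were lower on the DHT array, by 1.99-fold to 2.48-fold, and their differences of -1.22, -0.99 and -1.31 had an SD of 0.16. Uncorrected, they were 1.71-fold to 2.09-fold lower.

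Pdgfrb, the receptor that recruits pericytes, had a signal of 328 on the DHT array and 681 on the vehicle array. It was 2.20-fold lower (log2 difference -1.14, 1.76-fold uncorrected). Cspg4, the proteoglycan NG2 of the pericyte surface, had 185 on the DHT array and 261 on the vehicle array and was 1.85-fold lower (-0.89). Both its signals were near the detection limit, and without background correction it was 1.28-fold lower, under the threshold.

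Kcnj8 and Abcc9 encode the pore Kir6.1 and the sulphonylurea receptor SUR2, which together form the ATP-sensitive potassium channel of vascular mural cells. Their values came apart. Kcnj8 had a signal of 327 on the DHT array and 722 on the vehicle array and was 2.37-fold lower (-1.25, 1.87-fold uncorrected), the lowest difference among the 9 detected members on the brightest-probe values. Abcc9 probe ILMN_3104271 had 2666 on the DHT array and 3123 on the vehicle array, a normalized difference of 0.01. Abcc9 probe ILMN_2623859 had 1369 on the DHT array and 1655 on the vehicle array, a difference of -0.02. The third, ILMN_1233056, was detected on the DHT array alone (196, against 188 on the vehicle array), with a difference of 0.53 that shrank to 0.18 uncorrected. The brightest Abcc9 probe is annotated to another RefSeq transcript than the other two, and which SUR2 isoform each reads is not stated. Muscle fibres use SUR2 with the pore Kir6.2, encoded by Kcnj11. No probe read here was named for Kcnj11, and the share of Abcc9 signal from fibres was not tested.

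Rgs5, a brake on G protein signalling and a classical pericyte marker, had a signal of 720 on the DHT array and 957 on the vehicle array. Its normalized difference was -0.18, less than the SD between probes of a gene. It ranked 3183rd from the lowest of all genes, well apart from Kcnj8 at 351, Mcam at 368, Pdgfrb at 437 and Cspg4 at 716.

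**Figure D2:**
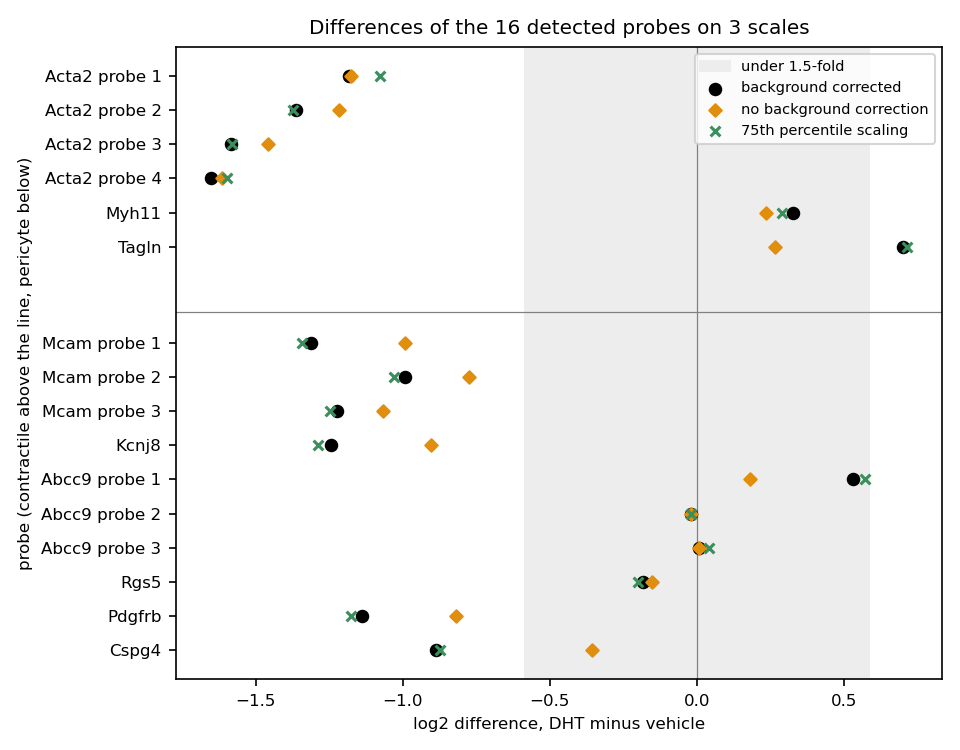
Log2 differences (DHT minus vehicle) of the 16 detected probes, 1 row each, after background correction (circles), without it (diamonds) and with 75th percentile scaling in place of quantile normalization (crosses); the grey band spans differences under 1.5-fold. Acta2, Mcam, Kcnj8 and Pdgfrb lie left of the band on all 3 scales, while Cspg4 and Tagln leave it only with background correction.

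**Figure D3:**
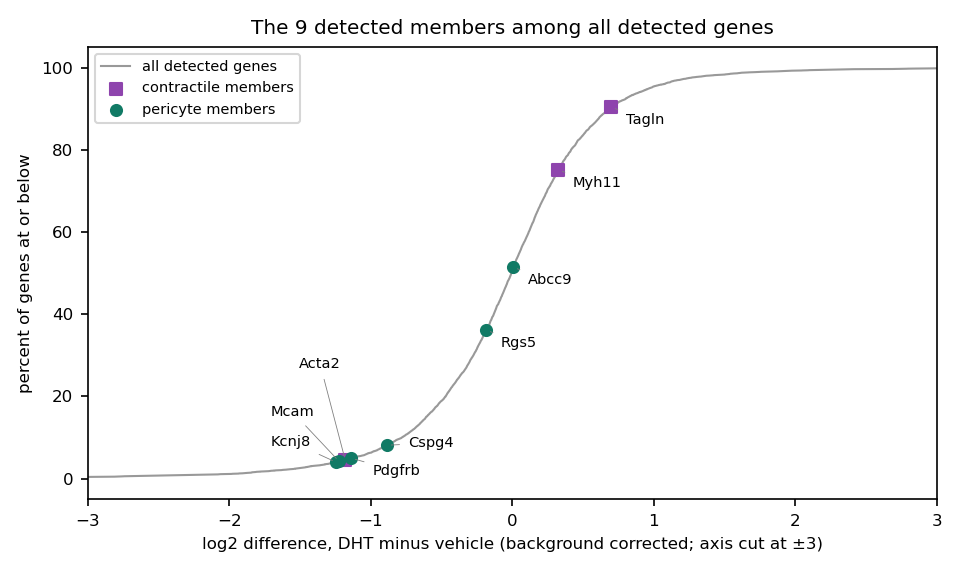
Cumulative percent of the 8815 detected genes (vertical axis) at or below each log2 difference (horizontal axis), with the 9 detected members marked on the curve. Acta2, Kcnj8, Mcam, Pdgfrb and Cspg4 cluster within the lowest 8.12% of genes, while Rgs5, Abcc9, Myh11 and Tagln lie between 36.1% and 90.4%.

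Other genes of the smooth muscle contractile apparatus lay on either side of 0. Of 14 genes on the array, all were detected, 2 were lower and 3 higher at 1.5-fold with Lmod1 at its bound (4 higher on the fitted differences), and their median was 0.04. Over all detected genes, 15.8% were lower and 13.4% higher by as much. Uncorrected, 1 gene of the list (Myl6) was lower and 3 were higher, beside 8.43% lower and 6.74% higher over all genes. The lower genes were Ppp1r14a (-0.96), an inhibitor of myosin phosphatase, at 183 on the DHT array and 264 on the vehicle array, and the myosin light chain Myl6 (-0.66). Higher were Actg2 (1.14), the synaptopodin relative Synpo2 (0.92), at 620 on the DHT array and 454 on the vehicle array, and the intermediate filament protein Synm (0.81). The actin nucleator Lmod1 was detected on the DHT array alone and was at least 1.45-fold higher on the background-corrected scale, 1.27-fold uncorrected. Mylk (0.29), the kinase that starts smooth muscle contraction, and Smtn (0.09), smoothelin, were under 1.5-fold; a dim Smtn probe read -0.33. Several of these genes, such as Des (-0.19) and Tpm2 (-0.01), are also abundant in muscle fibres. The Tpm2 probe used was above 40000 on both arrays, where differences are compressed, and 2 dimmer Tpm2 probes read 0.49 and 0.87.

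Regulators of the contractile programme showed no common direction. Of 12 genes on the array 7 were detected, with a median of -0.18. At 1.5-fold 1 was lower and 1 higher, beside 15.8% lower and 13.4% higher over all detected genes. Srf itself had a signal of 2018 on the DHT array and 1981 on the vehicle array (log2 difference 0.30). Its cofactors Myocd, Mrtfa and Mrtfb were detected on neither array, so these cofactors were not compared. Fhl2 (-1.11), a partner of SRF, was lower. Prkg1 (1.13), the kinase through which nitric oxide relaxes smooth muscle, was higher, at 511 on the DHT array and 348 on the vehicle array. Upstream of it, the guanylate cyclase subunit Gucy1a1 (-1.44) was lower on all 3 of its probes, from -0.92 to -1.44. Uncorrected, its brightest probe read -1.30 and its 2 dim probes -0.56 and -0.50, under the threshold. Its partner Gucy1b1 (-0.54) was under 1.5-fold.

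Further pericyte markers were lower with Mcam, Kcnj8 and Pdgfrb. Of 17 on the array, 15 were detected, 2 of them on the vehicle array alone. With these 2 at their bounds, 9 were lower at 1.5-fold, 6 of these by 2-fold or more, 1 was higher and the median was -0.76. On the fitted differences 10 were lower and the median was -0.99, and without background correction 8 were lower and the median was -0.62. Vtn, or vitronectin, had a signal of 587 on the DHT array and 1858 on the vehicle array and was 3.06-fold lower (-1.61). Gucy1a1 had 829 on the DHT array and 2419 on the vehicle array (2.70-fold lower). Notch3, the Notch receptor of mural cells, had 345 on the DHT array and 859 on the vehicle array (2.72-fold lower). Also lower were the transcription factor Foxs1 (-1.42, or -0.74 uncorrected), the gap junction protein Gjc1 (-1.30) and Higd1b (-1.04), a marker of capillary pericytes. Cox4i2, a subunit of cytochrome oxidase, was at least 1.80-fold lower (1.37-fold uncorrected). The aminopeptidase Anpep (0.06) differed little, and the transcription factor Zic1 (0.94, or 0.48 uncorrected) was higher, at 293 on the DHT array and 237 on the vehicle array. Rgs4 (-0.76), a relative of Rgs5 that pericytes also make, was lower by over 1.5-fold, and Rgs5 was not.

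The ligands and receptors that recruit and hold pericytes were mostly under 1.5-fold, as were most detected genes (15.8% lower and 13.4% higher). Of 20 genes on the array 17 were detected, 3 were lower and 0 higher when bounds were used for the genes seen on the vehicle array alone (4 lower on the fitted differences), with a median of -0.12. Pdgfb, the ligand of Pdgfrb, had a signal of 716 on the DHT array and 918 on the vehicle array (log2 difference -0.12), and Pdgfra, the receptor of fibroblasts, differed by -0.17. Angpt1 (0.08), which mural cells release, was also near 0, while its endothelial receptor Tek (-0.74) and the related receptor Tie1 (-1.36, or -0.73 uncorrected) were lower. Tgfb1 (at least 1.57-fold lower) and the Notch ligand Jag1 (at least 1.29-fold lower) were detected on the vehicle array alone. Uncorrected, 2 genes of the list, Tek and Tie1, were lower at 1.5-fold. Of the PDGF-B pair, the receptor and not the ligand differed by over 1.5-fold.

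Genes of proteins that bind or cut NG2 or Mcam included several lower genes. Of 8 detected, 6 were lower and 1 higher, and uncorrected 4 were lower and 1 higher. The 6 lower genes include the members Mcam, Pdgfrb and Cspg4, already counted above. Lgals3 (0.42) was under 1.5-fold. Mmp14 (-1.69), a protease that can shed NG2, had a signal of 1958 on the DHT array and 7060 on the vehicle array. The NG2 ligand collagen VI was read by Col6a2 (-1.68), at 683 on the DHT array and 2303 on the vehicle array. The integrin chain Itgb1 (-0.80) was lower, but -0.57 uncorrected, under the threshold, and -0.20 on its other probe. Itga3 (0.99, or 0.65 uncorrected) was higher.

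**Figure D4:**
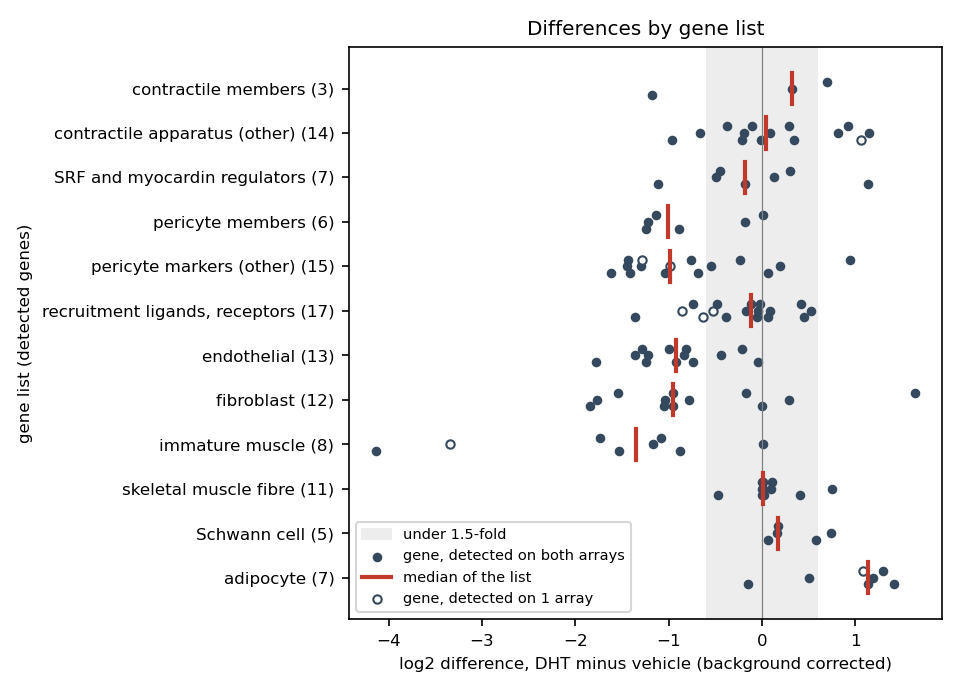
Log2 differences (DHT minus vehicle, horizontal axis) of the detected genes of 12 lists, 1 row per list with its number of detected genes; points are genes, open where detected on 1 array, red bars are list medians and the grey band spans differences under 1.5-fold. Pericyte, endothelial, fibroblast and immature muscle lists have medians of -0.92 or lower on these fitted differences (-0.76 for the further pericyte markers with genes at their bounds), and both contractile lists and Schwann cell genes have medians between 0.04 and 0.33. The median of 0.33 for the contractile members is the value of Myh11 alone. The fibre median of 0.01 is compressed by probes near the top of the scale. Without them it is 0.48, over a smaller set of genes of mixed sign.

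Markers of endothelium, fibroblasts and immature muscle were mostly lower too. By their medians, fibre (0.01, compressed), Schwann cell (0.17) and adipocyte (1.14) markers were not. Endothelial markers, the neighbours of pericytes, had 10 of 13 detected genes lower and 0 higher, and a median of -0.92. Their deposited signals, not normalized, summed to 16551 on the DHT array and 35126 on the vehicle array, whose total was also higher. Cdh5 (-1.78), Tie1 (-1.36) and Robo4 (-1.28) were the lowest, Vwf (-0.04) differed little, and Kdr and Erg were detected on neither array. Fibroblast markers had 8 of 12 lower and 1 higher, and a median of -0.95. Their deposited signals summed to 72629 on the DHT array and 120390 on the vehicle array. Dcn alone gave 45752 on the DHT array and 49857 on the vehicle array. The collagens Col1a2 (-1.84), Col1a1 (-1.77) and Col3a1 (-1.54) were the lowest, while Dcn (0.00) and Pdgfra (-0.17), both made by fibroblasts, differed little. The Dcn probe used was above 40000 on both arrays, where differences are compressed, and a dimmer Dcn probe read 0.31. Gsn (1.64, or 0.89 uncorrected) was higher and Tcf21 was detected on neither array. Immature muscle markers had 7 of 8 lower and 0 higher, and a median of -1.35. Their deposited signals summed to 76087 on the DHT array and 138410 on the vehicle array. Most of this came from Actc1 (65353 on the DHT array and 66270 on the vehicle array) and Myh8 (2919 and 54364). Both probes of the perinatal myosin Myh8 (-4.14 and -4.77) and the fetal receptor subunit Chrng (-1.74, or -0.97 uncorrected) were lower, and the fusion gene Mymk was at least 4.59-fold lower (2.84-fold uncorrected). The endothelial, fibroblast and immature muscle lists bear on Acta2, Mcam and Pdgfrb, which immature muscle, endothelium and fibroblasts also make. The part of those cells in the lower values was not tested.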

How the data were processed

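The members and gene lists were chosen with earlier results of these data known. Per the file headers, each of the 2 arrays (1 DHT, 1 vehicle, 0.55 µg total RNA) has a signal and a detection p-value per probe. The deposited signal intensity is linear and neither normalized nor background-subtracted, as its values show. The detection p-value was deposited by the authors. The authors also deposited log2 values, which lay within 0.0069 of quantile-normalized log2 signals. GenomeStudio 2011.1 is named in the submitters' processing notes; its role is not given in the sources used here.

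Signals were processed with the neqc function (offset 16) of limma 3.58.1 under R 4.3.3, checked on simulated data with known folds. Tables and plots used Python 3.11.15, pandas 2.3.3 and matplotlib 3.10.9. The platform annotation gave 23978 probes 1 symbol, 0 several and 1719 none; 23962 Entrez identifiers matched GRCm38.p6 names. A gene took its detected probe with the highest mean. "At least" folds set the bright value against the dim array's lowest detected value or the probe's own, whichever was higher. All member probes were reported, and from each other list up to 3 higher and 3 lower genes with the largest differences past 1.5-fold; others were chosen after their values were seen. Alternatives numbered 9. Total signals were 2.65e+07 (DHT) and 2.985e+07 (vehicle).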

Additional observations from a re-analysis of the deposited data

How the results depend on the processing

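No paired analysis was possible because each group had 1 array, and for the same reason no array could be left out. Under all 9 alternatives Acta2, Mcam, Kcnj8 and Pdgfrb were at least 1.5-fold lower, Myh11, Abcc9 and Rgs5 were under 1.5-fold, and no member changed direction. Cspg4 was past 1.5-fold under 7 of the 9 and Tagln under 6. These counts say little for a gene read by 1 probe detected on both arrays, such as Cspg4 and Tagln. The changes of detection filter and probe choice could not alter its value. Where the scale changed, Tagln was 0.71 with 75th percentile scaling, 0.49 with an offset of 50 and 0.27 uncorrected. Cspg4 was -0.87, -0.63 and -0.36 on the same scales. Without background correction, 594 genes were higher and 743 lower at 1.5-fold (1180 higher and 1394 lower with it), and 595 were higher and 743 lower with the authors' deposited series values, which lack it too. On these scales the pericyte median was -0.59 and -0.59, and the pericyte minus contractile difference -0.82 and -0.82 (-1.34 in the report's processing). The contractile median in this difference was the value of Myh11 alone. The medians of further pericyte markers were -0.62 and -0.62, and of immature muscle -1.01 and -1.01. For NG2 and Mcam partners, with the members Mcam, Pdgfrb and Cspg4 included, they were -0.69 and -0.69. Without a detection filter Cnn1 entered, and the contractile median was 0.0225 and the pericyte minus contractile difference -1.03. The potassium channel subunits had a median of -0.62 over 2 genes and of 0.0078 once the dim gene Abcc8 entered, both without a detection filter and at a detection p under 0.05. Leaving out probes above 40000 on both arrays gave a median of 0.48 over the few fibre genes left, which had mixed signs. Signal over background limits Tagln, Cnn1 and Cspg4. Of the 243 comparisons with an alternative, 215 moved by less than the SD of 0.29 between probes, or, for counts, by less than 1.5 times. Some of these could not move, such as filter changes for a gene with 1 probe detected on both arrays.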

Other observations

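Markers of fat cells went the other way from the pericyte genes. Of 7 detected adipocyte markers 5 were higher at 1.5-fold and 0 lower on the DHT array, with a median of 1.14. Adiponectin, Adipoq (1.42), had a signal of 3930 on the DHT array and 1818 on the vehicle array, leptin, Lep (1.30), 850 on the DHT array and 492 on the vehicle array, and the lipid droplet gene Cidec (1.19) 588 on the DHT array and 383 on the vehicle array. Plin1 was detected on the DHT array alone and was at least 1.70-fold higher, 1.30-fold uncorrected. Pparg (0.50) was under 1.5-fold, and so was Lpl (-0.15), the brightest of the list. Fabp4 and Retn were detected on neither array. Of 5 detected Schwann cell markers, 1, Ncmap (0.74), was higher and 0 were lower, with a median of 0.17. Uncorrected, Ncmap was 0.55, under the threshold, so that 0 were higher, and S100b was detected on neither array.

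Among RGS proteins, the family of Rgs5, 7 of 14 on the array were detected. All 7 had negative differences, with a median of -0.42 beside -0.01 over all genes. At 1.5-fold 3 were lower and 0 higher, beside 15.8% lower and 13.4% higher over all detected genes. Rgs16 (-1.50, or -0.81 uncorrected) was at 208 on the DHT array and 415 on the vehicle array. Rgs12 (-1.44, or -0.72 uncorrected) was at 198 on the DHT array and 366 on the vehicle array. Both DHT signals were near that array's lowest detected signal of 180. Rgs4 (-0.76), the last of the 3, was at 518 on the DHT array and 950 on the vehicle array. Rgs5 had the difference nearest to 0 of these 7.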
